A study of Mus musculus with 7 samples.

Results

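The genes described here encode the colony-stimulating factors and their receptors: the ligands Csf1 and Il34, their shared receptor Csf1r, the granulocyte-macrophage receptor subunits Csf2ra, Csf2rb and Csf2rb2, and the granulocyte receptor Csf3r. They were chosen by name. All 7 were found among the 55401 gene identifiers of the deposited count table, and all 7 passed the filter on low counts that left 19199 genes for testing. RNA was sequenced from CD11b-bead enriched microglia of the dorsal hippocampus of C57BL/6 mice aged 6 to 8 weeks, which the series title calls adult males. In every mouse the dorsal dentate gyrus was injected with AAV-RAM-Cre, whose promoter responds to neuronal activity. The 4 control libraries, EYFP 1 to 4, came from mice given AAV-Dio-EYFP as well, and the 3 libraries ATG7 1 to 3 came from mice given AAV-Dio-Atg7-Flag to raise Atg7, an autophagy gene, in memory engram cells of the dentate gyrus. The Dio viruses depend on Cre, so the transgene was directed at activated neurons rather than at the microglia that were measured. The labels do not say whether a library is 1 mouse or a pool. The p-values set the group difference against the variation between libraries, and the number of mice behind them is not known.

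Csf1 (M-CSF) and interleukin-34 are separate proteins without clear sequence similarity that bind the same receptor tyrosine kinase, Csf1r, on which microglia depend for survival. In the brain Il34 is made mainly by neurons, whereas Csf1 is made by glia, microglia included. Csf2ra is the ligand-binding chain for GM-CSF. It pairs with the common beta chain Csf2rb, which also serves interleukin-3 and interleukin-5, and mice carry a second copy, Csf2rb2, that serves interleukin-3. Csf3r is the receptor for G-CSF and is best known from neutrophils.

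Total counts ranged from 35934210 to 55217119 per library. All 10 microglial marker genes were detected, and their summed level was between 17152 and 21623 CPM (a gene's counts relative to the library total, scaled by TMM) in the 7 libraries. A control library stood apart and went against the male label: EYFP 3 had 938.0 CPM of the X-linked transcript Xist, which lay between 0.150 and 0.573 CPM in the other 6, and its Y-linked genes were at 17.3% (Ddx3y) to 21.7% (Eif2s3y) of the mean of the other EYFP libraries. EYFP 3 thus held Xist and Y-linked RNA together, and the cause was not tested. Values without EYFP 3 are given beside the results on the members. Markers of choroid plexus epithelium summed to between 54757 and 72262 CPM in EYFP and between 46380 and 61106 CPM in ATG7. All 8 had a log2 fold change below 0 (median -0.26), with 0 past the edgeR test at an adjusted p of 0.05 and 2 at an unadjusted p under 0.05. Their mean log2 level therefore served as a covariate in an alternative fit. In bulk samples, fewer cells of a type and less RNA per cell cannot be told apart.

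Csf1 was the member that passed the test between the groups, and the stretch upstream of it is shown for that reason. The 250 bases before its RefSeq start site (GRCm38.p6, chr3:107760470-107760719, minus strand) hold 1 match to the kappaB consensus, the site of NF-kB factors, printed in capitals. The match lies on the strand opposite to the gene, between 154 and 145 bases upstream of the start (chromosome 3, 107760614 to 107760623).
Csf1 upstream: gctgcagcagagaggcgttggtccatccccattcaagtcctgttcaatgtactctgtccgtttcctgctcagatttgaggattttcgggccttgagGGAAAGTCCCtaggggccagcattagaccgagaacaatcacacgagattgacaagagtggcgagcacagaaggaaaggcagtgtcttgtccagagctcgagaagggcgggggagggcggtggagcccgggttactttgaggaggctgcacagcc
Of 32851 promoters of the same length, 7.25% hold such a match on either strand. Promoters were in the RefSeq table for 4 members, Csf1, Csf2ra, Csf2rb2 and Csf3r, and 6 motifs were searched on both strands. Csf3r also held 1 kappaB match, Csf2rb2 held the STAT motif TTCNNNGAA (7.02% of promoters) and Csf2ra the CREB motif TGACGTCA (1.55%). The AP-1 motif TGANTCA (6.75% of promoters), the interferon-stimulated response element (2.98%) and the PU.1 motif GAGGAAGT (2.44%) were not among the letters of these 4 windows. A match is a description of letters and shows no binding.

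The pair Csf2rb and Csf2rb2 is shown because part of their reads fits both genes. The genes lie on opposite strands of chromosome 15, and the coding sequences of their longest transcripts were identical at 2503 of 2628 aligned bases (95.2%). Of all 100-base stretches in their GENCODE transcripts, 4.63% of those of Csf2rb and 6.82% of those of Csf2rb2 occur in both genes, and at 50 bases the shares were 12.3% and 18.4%. Read length and the handling of shared reads are not given in the sources used here. The longest coding run common to both, within 1 exon, is 242 bases long (GRCm38, chr15:78348577-78348818, plus strand, for Csf2rb and chr15:78284630-78284871, minus strand, for Csf2rb2):
Both genes: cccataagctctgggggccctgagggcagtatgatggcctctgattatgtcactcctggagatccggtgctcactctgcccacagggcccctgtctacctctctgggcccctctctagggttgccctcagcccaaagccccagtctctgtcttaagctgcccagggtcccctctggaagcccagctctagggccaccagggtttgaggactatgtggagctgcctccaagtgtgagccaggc
A read inside this run fits either gene. The 90-base coding window with the most differences holds 16 of them, in capitals (chr15:78338897-78338986 for Csf2rb and chr15:78294345-78294434 for Csf2rb2), and reads there can be assigned:
Csf2rb: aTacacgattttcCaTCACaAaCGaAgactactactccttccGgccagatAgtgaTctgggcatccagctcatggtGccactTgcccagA
Csf2rb2: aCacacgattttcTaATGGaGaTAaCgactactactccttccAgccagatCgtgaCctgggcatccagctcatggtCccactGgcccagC

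The levels of the members per length spanned nearly 3 orders of magnitude. Csf1r was the highest, at 1105 ± 111 CPM per kilobase of exon in EYFP (SD, n = 4) and 1175 ± 117 in ATG7 (SD, n = 3). Csf3r followed at 148.5 ± 24.3 and 191.1 ± 12.6, and Csf2ra at 35.4 ± 4.73 and 45.7 ± 5.42. Each of these 3 receptors was above the next in the order in all 7 libraries, without overlap of their ranges.

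Csf2rb2 and Csf2rb had nearly equal levels per kilobase of exon, 13.1 ± 0.781 and 11.96 ± 0.661 in EYFP (SD, n = 4) and 14.99 ± 2.25 and 14.4 ± 1.95 in ATG7 (SD, n = 3), and their ranges overlapped. Which of the 2 was higher depended on the length used: per kilobase of the longest coding transcript, Csf2rb was at 17.8 ± 0.982 and Csf2rb2 at 13.1 ± 0.781 in EYFP. Csf1 had 8.08 ± 0.626 CPM per kilobase of exon in EYFP and 12.3 ± 0.593 in ATG7. That range overlapped the range of Csf2rb over the 7 libraries, although Csf1 was the lower of the 2 in each library. Per kilobase of the longest coding transcript, Csf1 was at 15.6 ± 0.750 in ATG7, against 14.99 ± 2.25 for Csf2rb2. Il34 was the lowest member, per kilobase of exon at 2.28 ± 0.356 in EYFP and 2.00 ± 0.505 in ATG7, and lay below Csf1 in every library.

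**Figure D1:**
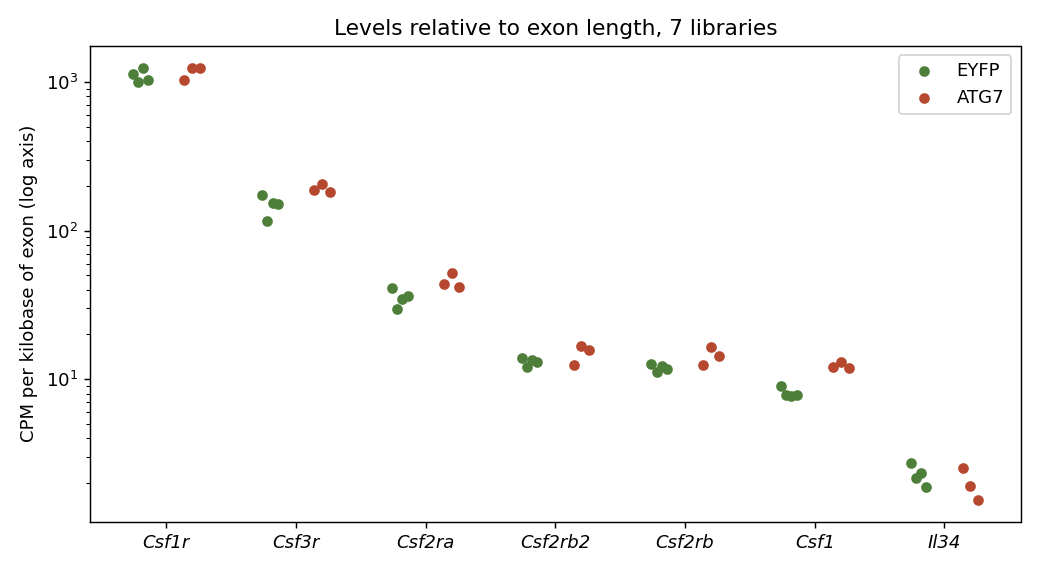
Level of each member in CPM per kilobase of exon (log axis), with 1 point for each of the 4 EYFP and 3 ATG7 libraries and genes ordered by their mean in EYFP. Csf1r lies above 1000 in every library and Il34 between 1.54 and 2.73.

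The comparison of ATG7 with EYFP asked how the microglia of mice with Atg7 in engram neurons differ from those of control mice. Of the 19199 genes tested, 145 (0.755%) passed the two-sided quasi-likelihood test of edgeR, with p adjusted after Benjamini and Hochberg over all genes and a threshold of 0.05. These were 0.688% higher and 0.0677% lower in ATG7. Of the 7 members, 1 passed, the ligand Csf1, which was higher, and 6 did not. With no filter on low counts 0.900% of all genes passed and by DESeq2 3.05%, and under both the number of members that passed was again 1. Without EYFP 3, 164 genes passed, and 13 with the choroid plexus covariate. At an unadjusted p under 0.05 there were 4 members, Csf1, Csf2ra, Csf3r and Csf2rb, against 2300 of the 19199 genes tested. The median log2 fold change of the 7 members was 0.27, and that of all genes tested was -0.00365. The members' median was 0.12 with the choroid plexus covariate and 0.16 without ATG7 2. The log2 fold change was above 0 in 6 members and in 49.2% of all genes tested. In 3 members (Csf1, Csf2ra and Csf3r) every ATG7 library lay above every EYFP library, which held for 6.33% of all genes tested. In 0 members did every ATG7 library lie below every EYFP library (4.90% of all genes), and the groups were apart in either direction in 11.2% of all genes.

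Csf1 (ENSMUSG00000014599, chromosome 3, 107741048 to 107760469, minus strand, GRCm38) was at 47.6, 41.0, 40.5 and 41.5 CPM in EYFP 1 to 4 and at 64.1, 68.6 and 62.6 CPM in ATG7 1 to 3. The groups did not overlap, and EYFP 1 was the control nearest to the ATG7 libraries. The counts behind these values were between 1692 and 3774 per library. The mean of Csf1 was 42.7 ± 3.31 CPM in EYFP (SD, n = 4) and 65.1 ± 3.13 CPM in ATG7 (SD, n = 3). Csf1 thus rose 1.53-fold, by 0.61 on the log2 scale with a standard error of 0.0757 (edgeR adjusted p = 0.00705). By unadjusted p it ranked 15 among the genes tested.

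With each library left out in turn, its log2 fold change lay between 0.57 and 0.67 and the edgeR adjusted p between 0.00180 and 0.0462. Without EYFP 3 the log2 fold change was 0.58 (edgeR adjusted p = 0.0107). With the mean log2 CPM of the choroid plexus markers as a covariate it was 0.54 (edgeR adjusted p = 0.0499), and with that of the neuron markers 0.63 (edgeR adjusted p = 0.00124). Set against the summed microglial markers, Csf1 was at 2.21 ± 0.230 CPM per 1000 CPM of markers in EYFP (SD, n = 4) and 3.33 ± 0.404 in ATG7 (SD, n = 3), again without overlap of the groups. How many of all genes have groups apart on this scale was not computed.

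Other cells that could contribute Csf1 were looked at through their markers. Summed astrocyte markers (9 genes) were between 436.1 and 819.5 CPM in EYFP and between 492.1 and 598.5 CPM in ATG7, and summed endothelial and mural markers (7 genes) between 438.7 and 737.4 and between 563.9 and 1010 CPM. Both ranges overlapped between the groups, and 0 genes of either list passed the test (edgeR, adjusted p under 0.05), with 2 astrocyte genes and 1 endothelial or mural gene at an unadjusted p under 0.05. All 7 endothelial and mural genes had a log2 fold change above 0 (median 0.28, or 0.04 without ATG7 3), and 6 of the 9 astrocyte genes had one below 0. Lymphocyte markers (7 genes) were low but did not overlap, at 1.66 to 3.57 CPM in EYFP and 4.77 to 11.4 CPM in ATG7. Of the 6 lymphocyte genes tested 0 passed (edgeR, adjusted p under 0.05), and 4 had an unadjusted p under 0.05. In 5 of the 6 the log2 fold change was above 0, and the list median was 1.44, or 0.82 without ATG7 3. The T cell gene Trac was at 0.377 to 0.546 CPM in EYFP and 0.764 to 2.58 CPM in ATG7. None of the 7 lymphocyte genes was at 3 counts or fewer in every library. Oligodendrocyte lineage markers (8 genes) summed to between 208.6 and 487.0 CPM in EYFP and between 237.6 and 355.5 CPM in ATG7. Border-associated macrophage markers (7 genes) summed to between 531.9 and 646.2 and between 568.8 and 643.6 CPM. Both sums overlapped between the groups, and 0 genes of either list passed (edgeR, adjusted p under 0.05). The list medians of the log2 fold change were -0.13 and 0.03. The part of these cells in the level of Csf1 was not tested.

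**Figure D2:**
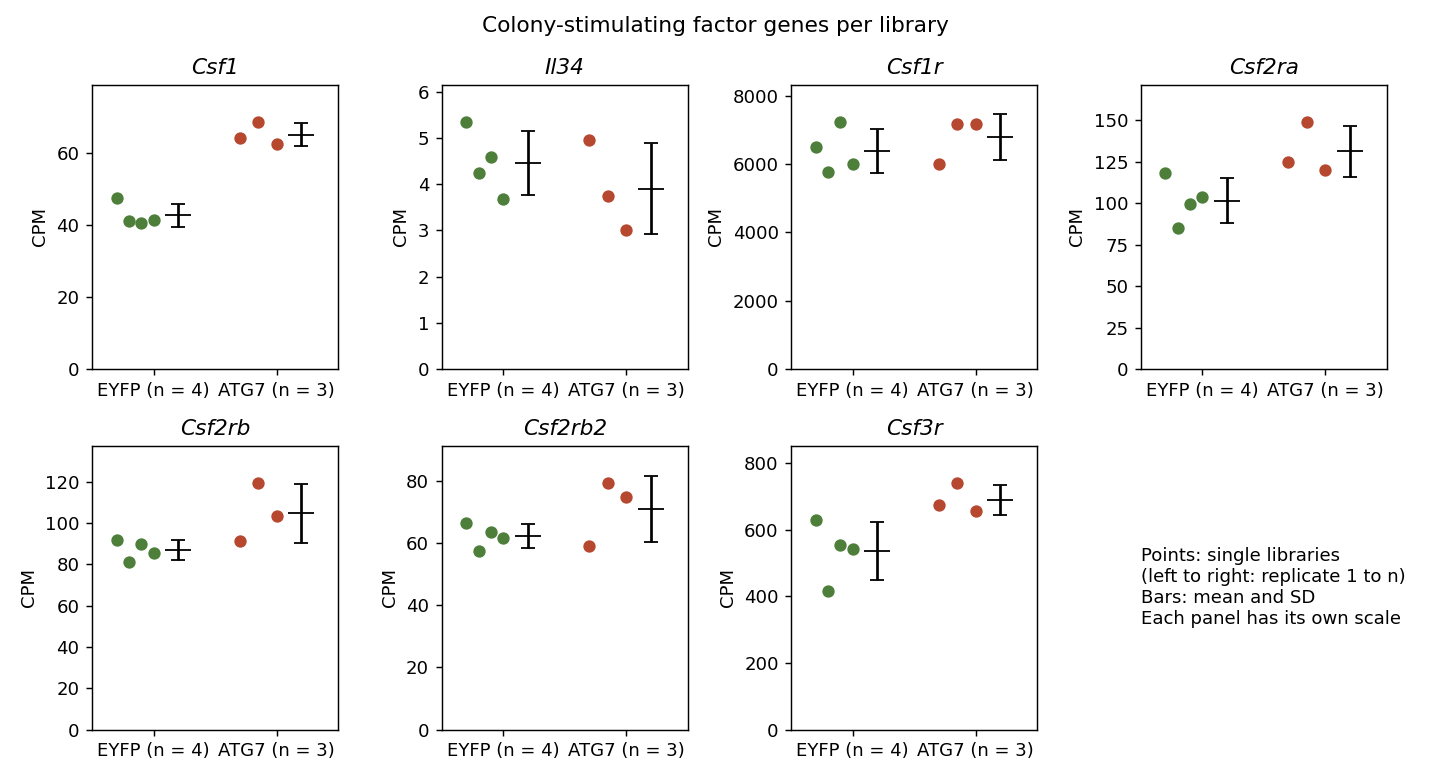
CPM of the 7 members in each library (points, replicate 1 to n from left to right) with the group mean and SD (bars), on a separate linear scale from 0 for each gene. Csf1 is at 40.5 to 47.6 CPM in EYFP and 62.6 to 68.6 CPM in ATG7, while the ranges of Il34, Csf1r, Csf2rb and Csf2rb2 overlap.

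Il34 (ENSMUSG00000031750, chromosome 8, 110741829 to 110805924, minus strand), the other ligand of Csf1r, did not pass the test. It was at 5.35, 4.25, 4.59 and 3.68 CPM in EYFP 1 to 4 and at 4.97, 3.75 and 3.01 CPM in ATG7 1 to 3, from 140 to 207 counts per library. The groups overlapped, and the ATG7 libraries held both the second highest and the lowest value. Its log2 fold change was -0.19, with a standard error of 0.203 (edgeR adjusted p = 0.774). It was the member with the largest standard error, and without ATG7 1 the log2 fold change was -0.40 (edgeR adjusted p = 0.528), whereas without ATG7 3 it was -0.04 (adjusted p = 0.974). Without EYFP 1 it was -0.10 (edgeR adjusted p = 0.876) and without EYFP 3 -0.18 (adjusted p = 0.809).

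The ratio of Csf1 to Il34 per kilobase of exon in EYFP 1 to 4 was 3.30, 3.58, 3.28 and 4.18, and in ATG7 1 to 3 it was 4.79, 6.80 and 7.72. Every ATG7 library thus had a higher ratio of the 2 ligands than every EYFP library. Csf1 enters this ratio and was itself apart between the groups, so the ratio is not a separate result. Neurons are the usual source of Il34. Their markers (10 genes) summed to 55.8, 47.6, 28.6 and 39.4 CPM in EYFP 1 to 4 and to between 31.0 and 34.4 CPM in ATG7. All 10 neuron markers had a log2 fold change below 0 (median -0.45, from -0.62 to 0.048 over all settings). Of these, 0 passed (edgeR, adjusted p under 0.05), and 1 had an unadjusted p under 0.05. With the mean log2 CPM of the neuron markers as a covariate, the log2 fold change of Il34 was -0.16. EYFP 1 had the most neuron markers and the most Il34. EYFP 3, with the fewest, had more Il34 than EYFP 2 and EYFP 4. The part of neurons in the level of Il34 was not tested. The antisense genes Gm15894 and Gm15895 share 22 and 75 exonic bases with Il34 and had 12 and 11 counts in all libraries together. The counting is not stated to use strand, so reads of the partners cannot be told apart.

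Csf1r (ENSMUSG00000024621), the receptor of both ligands, was at 6502, 5777, 7230 and 6008 CPM in EYFP 1 to 4 and at 6002, 7185 and 7168 CPM in ATG7 1 to 3. The groups overlapped almost fully, with the highest value in EYFP 3 and the second lowest in ATG7 1. Its log2 fold change was 0.09 with a standard error of 0.116 (edgeR adjusted p = 0.832). Without EYFP 3 it was 0.15 (edgeR adjusted p = 0.666), and with each library left out in turn it lay between 0.04 (without EYFP 2) and 0.17 (without ATG7 1). With the choroid plexus covariate the sign turned, at -0.06 (edgeR adjusted p = 0.917). Csf1r followed the microglial markers closely: relative to their sum it was between 325.4 and 349.9 CPM per 1000 CPM of markers in all 7 libraries. On this scale the 3 ATG7 values (349.9, 347.6 and 335.5) were above the highest EYFP value of 334.4, the lowest of them by less than the SD of 4.16 among the EYFP libraries. Here too the share of all genes with groups apart was not computed. Hmgxb3 overlaps Csf1r on the other strand over 873 exonic bases (15.1% of the exonic length of Csf1r). It had 11620 counts in the 7 libraries together, and Csf1r had at least 238202 counts in each single library. How reads in the shared bases were counted is not given, so their effect on Csf1r is not known.

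RNA of Csf1r per kilobase of exon therefore exceeded that of both ligands by a wide margin in all libraries of this CD11b-enriched preparation. Ligand made by cells outside the preparation does not enter these values. The ratio of Csf1r to Csf1 per kilobase of exon in EYFP 1 to 4 was 125.0, 128.8, 163.2 and 132.4, and in ATG7 1 to 3 it was 85.6, 95.7 and 104.7, so the lowest EYFP library was above the highest ATG7 library. In CPM the groups were apart for Csf1 and overlapped for Csf1r, so this ratio is not a separate result either.

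Csf2ra (ENSMUSG00000059326, chromosome 19, 61223957 to 61228429, minus strand), the ligand-binding chain for GM-CSF, was at 118.2, 85.1, 99.7 and 103.7 CPM in EYFP 1 to 4 and at 125.0, 149.1 and 120.0 CPM in ATG7 1 to 3. The groups did not overlap, although EYFP 1 and ATG7 3 were close. Relative to the summed microglial markers they did overlap, with 4.61 to 5.95 CPM per 1000 CPM of markers in EYFP and 5.61 to 7.29 in ATG7. In CPM its log2 fold change was 0.37 with a standard error of 0.112, which did not pass (edgeR unadjusted p = 0.00701, adjusted p = 0.198). Without EYFP 3 it was 0.36 (edgeR adjusted p = 0.274), and with the choroid plexus covariate it was 0.20 (edgeR adjusted p = 0.614).

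The beta chain Csf2rb (ENSMUSG00000071713, chromosome 15, 78325752 to 78353847, plus strand) was at 91.9, 81.0, 89.8 and 85.4 CPM in EYFP 1 to 4 and at 91.3, 119.6 and 103.5 CPM in ATG7 1 to 3. ATG7 1 lay within the EYFP range and the other 2 ATG7 libraries above it. The log2 fold change was 0.27 with a standard error of 0.0922 (edgeR adjusted p = 0.268). Its copy Csf2rb2 (ENSMUSG00000071714, chromosome 15, 78282507 to 78305721, minus strand) was at 66.3, 57.5, 63.6 and 61.5 CPM in EYFP 1 to 4 and at 59.0, 79.4 and 74.7 CPM in ATG7 1 to 3, with the same 2 libraries above the EYFP range. Its log2 fold change was 0.19 with a standard error of 0.0986 (edgeR adjusted p = 0.490). Without ATG7 2 the log2 fold changes of Csf2rb and Csf2rb2 were 0.16 and 0.10, and without ATG7 1 they were 0.36 and 0.31. With the choroid plexus covariate they were 0.12 and 0.03, and without EYFP 3 they were 0.28 and 0.20. Relative to the summed microglial markers the groups were apart for both, with Csf2rb at 4.15 to 4.63 CPM per 1000 CPM of markers in EYFP and 4.84 to 5.79 in ATG7, and Csf2rb2 at 2.94 to 3.34 and 3.44 to 3.84. In CPM both overlapped, and the marker sum that divides them was lowest in ATG7 1. The share of all genes apart on the marker scale was not computed.

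Because the 242-base run above and others like it fit both copies, each value is uncertain, and their sum was tested as well. The sum was at 149.3 ± 8.49 CPM in EYFP (SD, n = 4) and 175.8 ± 24.4 CPM in ATG7 (SD, n = 3), with a log2 fold change of 0.24 and a standard error of 0.0966 (edgeR adjusted p = 0.357). The ratio of Csf2rb to Csf2rb2 counts was steady in EYFP, between 1.39 and 1.41, and ranged from 1.39 to 1.55 in ATG7. Without ATG7 1 the log2 fold change of the sum was 0.34 (edgeR adjusted p = 0.161), and without ATG7 2 it was 0.14 (edgeR adjusted p = 0.787). With the choroid plexus covariate it was 0.09 (edgeR adjusted p = 0.857), and without EYFP 3 it was 0.24 (edgeR adjusted p = 0.392).

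Csf3r (ENSMUSG00000028859, chromosome 4, 126024550 to 126044440, plus strand), the G-CSF receptor, was at 629.2, 417.5, 553.3 and 543.5 CPM in EYFP 1 to 4 and at 673.3, 741.0 and 654.9 CPM in ATG7 1 to 3. The groups did not overlap, and EYFP 2 was the lowest of all libraries. Relative to the summed microglial markers the groups overlapped, at 23.5 to 31.7 CPM per 1000 CPM of markers in EYFP and 30.7 to 39.3 in ATG7. In CPM its log2 fold change was 0.36 with a standard error of 0.124 (edgeR unadjusted p = 0.0135, adjusted p = 0.264). Without EYFP 2 it was 0.26 (edgeR adjusted p = 0.308), without EYFP 3 it was 0.37 (edgeR adjusted p = 0.302), and with the choroid plexus covariate it was 0.18 (edgeR adjusted p = 0.670).

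Neutrophil markers (10 genes, among them S100a8, S100a9 and Ly6g) summed to 83.3, 84.9, 114.2 and 48.8 CPM in EYFP 1 to 4 and to 27.4, 33.8 and 163.3 CPM in ATG7 1 to 3, with the lowest sums in ATG7 1 and ATG7 2 and the highest in ATG7 3. The defining marker Ly6g was between 0.146 and 0.665 CPM in the 7 libraries. The part of neutrophils in the level of Csf3r was not tested. Monocyte markers (5 genes) summed to between 31.1 and 35.8 CPM in EYFP and between 30.4 and 60.7 CPM in ATG7, and dendritic cell markers (5 genes) to between 28.3 and 33.5 and between 31.7 and 39.2 CPM. Both ranges overlapped between the groups, and 0 genes of either list passed (edgeR, adjusted p under 0.05). Of the monocyte genes 3 had a log2 fold change above 0 and 2 below (median 0.65, or -0.16 without ATG7 3), with 2 at an unadjusted p under 0.05. All 5 dendritic cell genes were above 0 (median 0.19, or 0.05 without ATG7 3), with 0 at an unadjusted p under 0.05. The part of these cells in the levels of the GM-CSF receptor chains was not tested.

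**Figure D3:**
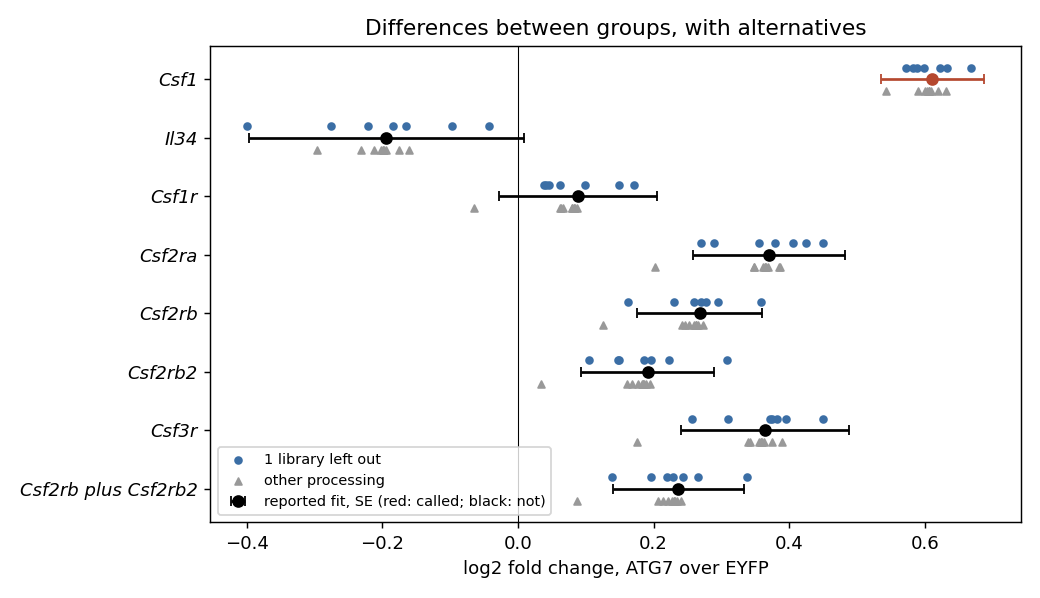
Log2 fold change of ATG7 over EYFP for each member and for the summed pair Csf2rb and Csf2rb2, with its standard error, and the values with 1 library left out (circles) or other processing (triangles). Csf1, at 0.61, is the member that passed the test, and the triangle at the lowest value of each receptor is the fit with choroid plexus markers as a covariate.

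Genes around the receptors were read from 5 lists of 59 genes in all, written with earlier results of these data known. For the counts per list, 2300 of all 19199 genes tested had an unadjusted p under 0.05 (edgeR). A log2 fold change above 0 was found in 49.2% of all genes tested. Of the 54 that passed the filter, 1 rose and 0 fell (edgeR, adjusted p under 0.05), against 0.755% of all genes tested, and that gene was Pim1. Pim1, a serine/threonine kinase induced by STAT5 downstream of cytokine receptors, was at 11.9, 10.2, 11.3 and 12.6 CPM in EYFP 1 to 4 and at 17.3, 17.1 and 20.9 CPM in ATG7 1 to 3. The 2 groups did not overlap. Pim1 rose by 0.68 on the log2 scale with a standard error of 0.110 (edgeR adjusted p = 0.0206). The call was lost without EYFP 4 (edgeR adjusted p = 0.0574), without ATG7 2 (0.0714) or without ATG7 3 (0.128), and with the choroid plexus covariate (0.143), while the log2 fold change stayed between 0.57 and 0.73. Without EYFP 3 it was 0.67 (edgeR adjusted p = 0.0412).

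The other 10 genes of the JAK-STAT list did not pass, and its median log2 fold change over 11 genes was 0.14, or 0.07 with the choroid plexus covariate. Of the 11 genes, 4 had an unadjusted p under 0.05 (edgeR), and the log2 fold change was above 0 in 8 and below in 3. Cish, a feedback inhibitor induced by STAT5 like Pim1, had a log2 fold change of -0.51 (edgeR adjusted p = 0.168), and Socs1, another feedback inhibitor, of 0.47 (edgeR adjusted p = 0.331). The kinase Jak2, which the beta chain engages, was at 57.6 CPM in EYFP and 66.5 CPM in ATG7 on average, with a log2 fold change of 0.21 (edgeR adjusted p = 0.189). Cish, Socs1 and Jak2 were chosen with their values in view.

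Of the 23 adaptors, kinases and phosphatases of Csf1r signalling, 0 passed (edgeR, adjusted p under 0.05; 5 had an unadjusted p under 0.05), and the median log2 fold change was 0.15, or 0.04 with the choroid plexus covariate. The Src-family kinase Fgr had the smallest p, at 6.18 ± 0.971 CPM in EYFP (SD, n = 4) and 9.61 ± 2.11 CPM in ATG7 (SD, n = 3), a log2 fold change of 0.64 (edgeR adjusted p = 0.162). Fgr passed by DESeq2 (adjusted p = 0.0313) and with no filter (edgeR adjusted p = 0.0478). The adaptor Tyrobp was at 331.4 CPM and 379.5 CPM on average and the kinase Syk at 204.8 CPM and 237.4 CPM (edgeR adjusted p = 0.450 and 0.475).

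Of 8 transcription factors that act on Csf1r, 0 passed (edgeR, adjusted p under 0.05; 3 had an unadjusted p under 0.05), and all 8 had a log2 fold change above 0, with a median of 0.15 that was 0.06 with the choroid plexus covariate. Cebpb, which activates inflammatory genes in myeloid cells, was at 10.5 ± 0.725 CPM in EYFP (SD, n = 4) and 17.995 ± 5.27 CPM in ATG7 (SD, n = 3), with values of 23.4, 17.7 and 12.9 CPM in ATG7 1 to 3. Its log2 fold change was 0.77 (edgeR adjusted p = 0.0735), and it passed by DESeq2 (adjusted p = 0.00203), with no filter (edgeR adjusted p = 0.0184) and in edgeR without ATG7 3 (adjusted p = 0.0423). Spi1, the gene of PU.1, was at 188.3 CPM and 200.5 CPM on average (edgeR adjusted p = 0.754).

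The list of other ligands and receptors held the ligands of the GM-CSF and G-CSF receptors. Csf2, Il3 and Il5 had at most 3 counts in each library, and Csf2, Csf3, Il3, Il5 and Il5ra did not pass the filter. Of the 7 tested genes of that list 0 passed (edgeR, adjusted p under 0.05; 1 had an unadjusted p under 0.05), and Il3ra, the interleukin-3 receptor alpha chain, had the smallest p, with 2.63 ± 0.165 CPM in EYFP (SD, n = 4) and 3.79 ± 1.04 CPM in ATG7 (SD, n = 3; edgeR adjusted p = 0.325). Of the 5 genes of shedding and alternative binding 0 passed (edgeR; 1 had an unadjusted p under 0.05). Adam17, a protease that releases membrane-bound Csf1, was at 233.6 ± 17.4 CPM in EYFP (SD, n = 4) and 266.6 ± 17.8 CPM in ATG7 (SD, n = 3; edgeR adjusted p = 0.404).

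**Figure D4:**
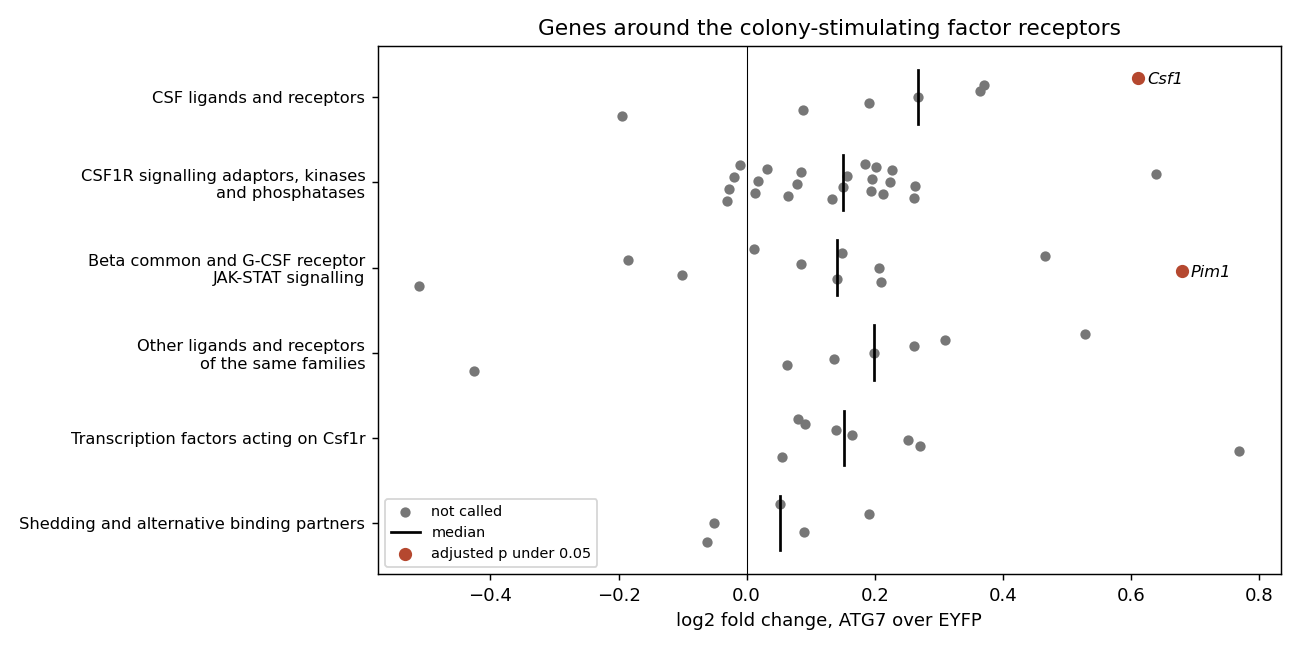
Log2 fold change of ATG7 over EYFP for each tested gene (points) of the members and of the 5 surrounding lists, with the median of each list (bar). Pim1, at 0.68, is the labelled gene outside the members that passed the test.

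The genes whose log2 CPM followed a member most closely over the 7 libraries were found among 15048 genes with a mean of at least 1 CPM, as a description. For Csf1 they were Cd300lf (Pearson r = 0.987, Spearman rho = 0.964), a myeloid receptor for lipids, Gm4951 (r = 0.986, rho = 0.964) and Bcl3 (r = 0.985, rho = 0.929), a nuclear partner of NF-kB. These 3 genes passed the comparison themselves, with log2 fold changes of 1.13, 1.30 and 1.02 (edgeR adjusted p = 0.00982, 0.00404 and 0.0206), so the shared group difference enters each r. Without ATG7 2 the calls of Cd300lf and Bcl3 were lost (edgeR adjusted p = 0.0569 and 0.109), and that of Bcl3 also without EYFP 4 (0.0803) and without ATG7 3 (0.114). With the choroid plexus covariate both were lost as well (edgeR adjusted p = 0.0681 and 0.164). The log2 fold changes were then 1.07 and 0.85, and without ATG7 2 they were 1.03 and 0.91. For Csf1r they were Was (r = 0.991), Tifab (r = 0.990) and Nfam1 (r = 0.989), 3 genes that did not pass, with edgeR adjusted p of 0.718, 0.872 and 0.884. For Il34 they were Zbtb41 (r = 0.964), Xiap (r = 0.951) and Ncam2 (r = 0.940), and for these the edgeR adjusted p was 0.920, 0.939 and 0.707. With 15048 candidates and 7 libraries, high values of r can arise without any link between the genes, and no p was computed.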

How the data were processed

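RNA-seq libraries, 4 EYFP and 3 ATG7, were compared. The authors deposited raw counts per gene. Per the submitters' processing notes, fastp 0.20.1, HISAT2 2.0.5 and featureCounts were used with mm10/GRCm38. The roles of these tools, strand setting, annotation release and handling of shared reads are not given in the sources used here. Columns were matched to libraries by name (0 unmatched), and the counts of the 37 mitochondrial genes were 0 in each library. Symbols, coordinates and exonic lengths came from GENCODE M21, which named 55141 identifiers.

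Under R 4.3.3, edgeR 4.0.16 served for the quasi-likelihood test, with no covariate (TMM scaling, filterByExpr, robust dispersion); p-values were adjusted over all genes tested. The code was tested on simulated data. CPM are scaled by TMM factors, with a prior count of 2 where taken to log2 (covariates and likeness). The standard error is the absolute log2 fold change over the square root of F. Replicate libraries differed by more than sampling noise (chi-square per degree of freedom from 21.0 to 45.4). A floor of 3 counts is 0.0543 to 0.0835 CPM, and covers counting error only. The longest coding transcript served as a second length.

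The members and lists were chosen with earlier results of these data known. The text names the members, each passing gene of a list or else the one with the smallest p, and the 3 genes most like Csf1, Il34 and Csf1r. Any other gene was chosen with its values in view. Alternatives were other scalings, filters, tests (DESeq2 1.42.0, limma-voom 3.58.1), a replicate block, 2 covariates and leaving out each library.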

Additional observations from a re-analysis of the deposited data

Results flagged for a closer look

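Dixon's ratio, the gap of an extreme library over the range of its group, was computed for 43 values in the 4 EYFP libraries. It was above the 95% critical value for 5 of them, and 1 in 20 (2.15 of 43) would be expected by chance for independent values. These values are not independent. The sex-linked genes share a source, and Csf2rb and Csf2rb2 enter singly, as a sum and as ratios. Csf1 in EYFP 1 was at 47.6 CPM, against 40.5 to 41.5 CPM in the other EYFP libraries, and below each ATG7 library. The summed dendritic cell markers were also highest in EYFP 1, at 33.5 CPM against 28.3 to 28.6 CPM. EYFP 3 stood apart for Xist, at 938.0 CPM, and had the lowest Ddx3y (27.6 CPM) and Kdm5d (8.09 CPM) of the EYFP libraries, with the others between 152.9 and 168.6 CPM and between 42.3 and 48.4 CPM. No explanation of these values was tested.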

How the results depend on the processing

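Across 17 alternatives, Csf1 kept its direction, with log2 fold changes from 0.54 to 0.67, and passed in 16 of them. It did not pass with the replicate number as a block (replicate block: log2 fold change 0.60, edgeR adjusted p = 0.219), where 0 members and 0 of all genes passed. Same-numbered libraries did not deviate together (correlations of -0.0609, -0.182 and 0.0664), so the numbers are not shown to pair them. The number of genes called was 297 with no filter (234 higher), 585 with DESeq2 (407 higher), 13 with the choroid plexus covariate and 233 with the neuron covariate, and with 1 library left out it ranged from 28 (without ATG7 2) to 277 (without EYFP 1). It was 94 without EYFP 2 and 30 without EYFP 4 or without ATG7 3. Of the genes called 91.0% were higher as reported, 78.8% with no filter, 69.6% with DESeq2 and 75.5% without EYFP 1. Members called numbered 1 with each library left out. The other 6 members and the summed pair passed under 0 of the alternatives. Csf1r reversed to -0.0644 with the choroid plexus covariate, as did Was (-0.0303), Tifab (-0.11) and Nfam1 (-0.11), while Zbtb41 (0.0125, with -0.0788 without ATG7 1) and Xiap (0.00355, with -0.0550 without ATG7 1) reversed without ATG7 3. The cause of these moves was not tested. The alternatives were also read for Pim1, Fgr, Il3ra, Cebpb, Adam17 and the genes most like a member. Among their results, counted per gene and alternative, 14 lost their call and 5 gained one. Cish, Socs1, Jak2, Tyrobp, Syk, Spi1 and Trac are not in this count. Over all genes the median log2 fold change lay between -0.0243 and 0.00308. Il34 had the fewest counts of the members, 140 to 207 per library.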
